A study of Rattus norvegicus with 25 samples.

Results

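Klf2, Klf4, Klf6, Klf9, Klf10 and Klf13, 6 genes of the Krüppel-like factor (KLF) family, were followed in the striatum of adolescent rats. They were taken as all probe sets to which the array's annotation gives exactly 1 of these symbols, which found 7 probe sets of 6 genes among 29214 probe sets, of which those with 1 symbol name 14506 genes. Klf4 had 2 probe sets (10873814 and 10876838), and the others had 1 each (Klf2 10790670, Klf6 10799291, Klf9 10714413, Klf10 10903459 and Klf13 10722549).

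RNA came from the striatum of male Lister Hooded rats killed at postnatal day 35 to 42, with 1 Affymetrix array per rat and 25 arrays in all. The Nic rats (n = 7) were offspring of dams that drank a nicotine solution from before mating and through pregnancy. The Con-Pf rats (n = 10) were offspring of pair-fed dams without nicotine, whose food was held to the amount that Nic dams had eaten. The Con rats (n = 8) were offspring of dams that ate and drank freely, so that Con-Pf minus Con is the contrast for gestational food restriction and Nic minus Con-Pf the contrast for nicotine at matched food intake. The paper reports that Nic dams also drank less than Con-Pf dams. It proposes higher stress in pair-fed animals as a possible further factor. The litter of each rat is not given. The methods list fewer pair-fed dams than there are Con-Pf rats by the sample titles, so by these labels some Con-Pf rats shared a dam. Rats of the other groups may have shared dams too. The tests over rats do not take shared dams into account.

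KLFs are transcription factors whose zinc fingers bind GC-rich and CACCC sequences near the genes they control, and the SP factors are their close relatives. Some members, Klf9 and Klf13 among them, recruit the Sin3a corepressor and mostly lower transcription, whereas others activate or do both. In brain, KLFs are known for limiting or permitting neurite growth and for answering to hormones and to neuronal activity.

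Promoter sequence is shown for the KLF member that was lower in Con-Pf rats, Klf9, and for Klf6, which did not pass the test in any comparison but went up and down with Klf9 among rats of the same group. Each run is the 250 bases before the transcription start, 5′ to 3′ on the gene's strand, from RefSeq on the rat build GRCr8, in which Klf9 lies at chr1:230126396-230126645 (plus strand) and Klf6 at chr17:69458479-69458728 (minus strand). Capitals mark the motifs found among the 6 searched on both strands: the E-box CACGTG of clock factors, the half-site TGACG of the cAMP response element, the half-site AGAACA of the glucocorticoid response element, the CACCC element CCACCC, the GC box GGGCGG and the CCAAT box CCAAT.
Klf9: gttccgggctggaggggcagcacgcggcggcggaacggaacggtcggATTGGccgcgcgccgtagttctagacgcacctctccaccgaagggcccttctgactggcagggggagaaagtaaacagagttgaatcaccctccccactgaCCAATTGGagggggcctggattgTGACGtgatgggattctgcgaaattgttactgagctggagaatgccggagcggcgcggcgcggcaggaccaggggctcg
Klf6: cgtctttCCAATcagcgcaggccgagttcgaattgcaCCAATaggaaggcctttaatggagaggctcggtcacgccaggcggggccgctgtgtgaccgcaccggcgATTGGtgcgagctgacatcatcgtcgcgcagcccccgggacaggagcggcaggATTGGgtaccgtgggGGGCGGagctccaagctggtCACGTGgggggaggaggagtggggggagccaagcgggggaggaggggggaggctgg
The Klf9 window held 1 TGACG match, at position -79 from the start, and 3 CCAAT matches, of which 2 overlap on opposite strands. The Klf6 window held 1 CACGTG match at position -56, 1 GGGCGG match at position -76 and 4 CCAAT matches. Of 33469 rat promoter windows of this length, 5.59% held CACGTG, 18.2% TGACG, 17.5% AGAACA, 26.1% CCACCC, 30.5% GGGCGG and 34% CCAAT. A match is a description of the letters, and nothing about a factor was read from it. Promoters matched for 3 of the 6 genes (Klf4, Klf6 and Klf9), while Klf2, Klf10 and Klf13 are named only.

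The differences lay mostly between Con-Pf and Con rats: Klf4 and Klf10 were higher and Klf9 was lower in Con-Pf striatum, while Klf6 and Klf13 lay within 0.03 of Con in the mean and Klf2 did not pass the test. Values are log2 levels as the authors normalised them, so that a difference of 1 is a doubling. The main test, limma, ran over the 14607 probe sets with a mean level at or above the median of all, 6.97, with p-values adjusted over all of them by Benjamini and Hochberg and a call at an adjusted p under 0.05. Of the members, 6 probe sets of all 6 genes were kept, and the second Klf4 probe set, 10873814, missed the threshold with a mean of 6.91. Its tests come from the same fit over all 29214 probe sets with no filter. Just inside the threshold were Klf6 (mean level 7.17) and Klf4 10876838 (mean level 7.30).

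In Con-Pf minus Con, 3 of the 6 kept member probe sets were called, 2 higher and 1 lower, against 1.26% of all probe sets kept (184 of 14607), 1% of them called higher and 0.26% called lower. The 6 genes were chosen with earlier results of these data known, so these shares are no test of the family. The median difference of the 6 genes was 0.14, against 0.02 over the 8989 genes measured. In Nic minus Con-Pf none of the 6 was called (0.185% of all probe sets kept were, 27 in number), and in Nic minus Con none was called either, as was true of all 14607 probe sets (0%). At an unadjusted p under 0.05 the Nic minus Con-Pf contrast held 2 of the 6 kept probe sets, Klf4 10876838 and Klf9, against 4.36% of all probe sets kept. The Nic minus Con contrast held Klf9 and Klf10, against 16.2%. Klf4 10873814, tested with no filter, had an unadjusted limma p of 1.13e-05 in Nic minus Con-Pf and of 0.00575 in Nic minus Con, where 3.91% and 10.3% of the 29214 probe sets were under 0.05. Both contrasts with Con-Pf rest on the same 10 Con-Pf arrays.

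**Figure D1:**
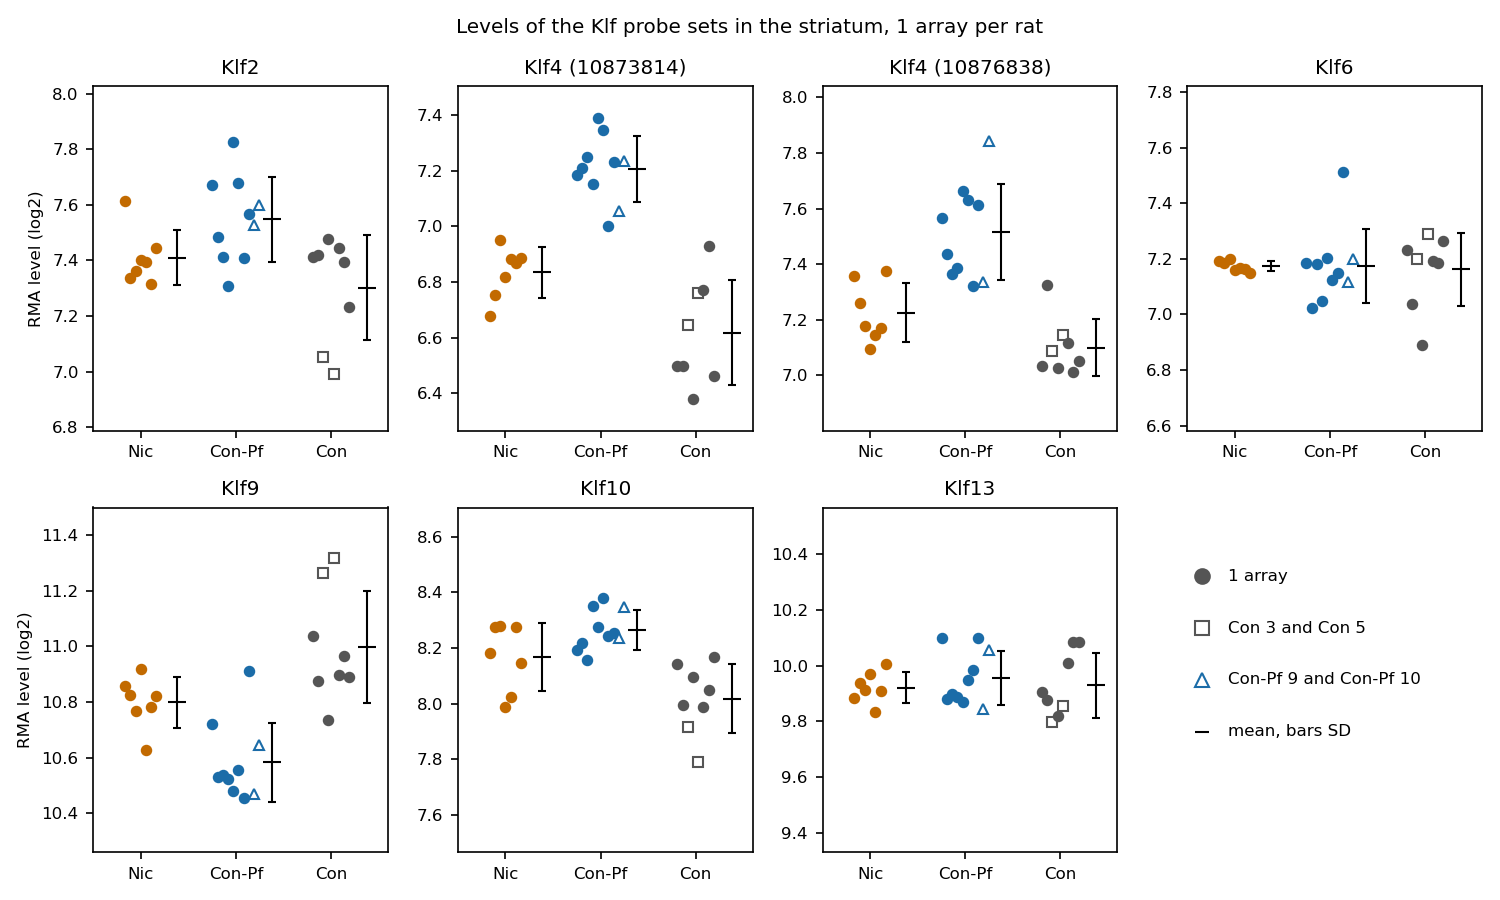
Log2 level (vertical axis, with the same span in each panel) of each of the 7 Klf probe sets in each rat, in Nic, Con-Pf and Con from left to right. Each symbol is 1 array, black bars give the mean ± SD, open squares are Con 3 and Con 5 and open triangles Con-Pf 9 and Con-Pf 10. Con-Pf sits above Con for both Klf4 probe sets and Klf10 and below Con for Klf9, and Nic means lie between.

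Klf9, also called basic transcription element binding protein, is a repressor that thyroid hormone and glucocorticoids induce in brain. Its log2 level (lowest, median and highest) was 10.63, 10.82 and 10.92 in Nic rats, 10.46, 10.53 and 10.91 in Con-Pf rats and 10.73, 10.93 and 11.32 in Con rats. Of the 10 Con-Pf rats, 9 lay below every Con rat, and the exception was Con-Pf 8 at 10.91. The group means were 10.800 ± 0.092 in Nic, 10.583 ± 0.141 in Con-Pf and 10.998 ± 0.201 in Con (SD, n = 7, 10 and 8).

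Klf9 was therefore lower in Con-Pf than in Con by a log2 difference of -0.42 (SE 0.07, 95% interval -0.56 to -0.27, limma adjusted p = 0.00089), a linear ratio of 0.75. Among the 38 probe sets called lower in this contrast its difference was 3rd in size. Nic rats lay between, at 0.22 above Con-Pf (SE 0.07, limma adjusted p = 0.638) and -0.20 from Con (limma adjusted p = 0.268), neither of which passed. The Con 5 and Con 3 rats had the highest Klf9 levels, 11.32 and 11.27. These 2 arrays stood apart from the other 23 on the first principal component of all kept probe sets, with scores of -33.9 and -25.2 against -11.6 for the next array. Without them Klf9 was still called lower in Con-Pf, at -0.32 (limma adjusted p = 0.00605). The methods' test of the pair of groups, with unequal variances, missed the threshold for Klf9 after Benjamini-Hochberg adjustment (adjusted p = 0.0632).

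Klf13 is a close relative of Klf9 that binds the same GC-rich elements and Sin3a. Its level was 9.83, 9.91 and 10.00 in Nic rats (lowest, median and highest), 9.84, 9.92 and 10.10 in Con-Pf rats and 9.80, 9.89 and 10.09 in Con rats. The 3 groups overlapped over nearly their whole ranges. The Con-Pf minus Con difference was 0.03 with a 95% interval of -0.07 to 0.12 (limma adjusted p = 0.747), and the interval of the Klf9 difference lies wholly below it. Klf13 thus did not pass in any contrast, with -0.04 in Nic minus Con-Pf and -0.01 in Nic minus Con. It also varied least among rats of 1 group: its residual SD of 0.10 lay at percentile 25.9 of the kept probe sets, against 72.2 for Klf9.

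Klf10, first described as a gene that transforming growth factor beta induces early, codes for a repressor of the Smad7 gene and follows the circadian clock in several tissues. Its level was 7.99, 8.18 and 8.28 in Nic rats (lowest, median and highest), 8.16, 8.25 and 8.38 in Con-Pf rats and 7.79, 8.02 and 8.17 in Con rats. The Con-Pf rats were all high and close together, and 9 of the 10 lay above every Con rat. The means were 8.17 ± 0.12 in Nic, 8.27 ± 0.07 in Con-Pf and 8.02 ± 0.12 in Con (SD).

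Klf10 was higher in Con-Pf than in Con by 0.25 on the log2 scale (SE 0.05, 95% interval 0.14 to 0.35, limma adjusted p = 0.00905), a linear ratio of 1.19. The lowest Con values were again those of Con 5 (7.79) and Con 3 (7.92). Without these 2 arrays the difference was 0.19 and missed the threshold (limma adjusted p = 0.0724). It was also missed with the methods' test after adjustment (adjusted p = 0.0806). Nic differed from Con-Pf by -0.10 and from Con by 0.15, neither of which passed (limma adjusted p = 0.999 and 0.268).

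Klf4 is a factor of stem cells and of quiescent endothelium that also limits axon growth in neurons. Probe set 10873814 read 6.68, 6.87 and 6.95 in Nic rats (lowest, median and highest), 7.00, 7.22 and 7.39 in Con-Pf rats and 6.38, 6.57 and 6.93 in Con rats. Every Con-Pf rat lay above every Nic rat and above every Con rat. Groups without overlap were found in Con-Pf minus Con for 0.144% of the 29214 probe sets, for 0.0479% in Nic minus Con-Pf and for 0.0308% in Nic minus Con. In Nic minus Con none of the 7 Klf probe sets was among them.

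On this probe set Klf4 was higher in Con-Pf than in Con by 0.59 (SE 0.07, 95% interval 0.45 to 0.72, limma adjusted p = 6.33e-06 over all probe sets, of which 0.329% were called), a linear ratio of 1.50. Of the 7 Klf probe sets it was the one with the largest difference. Nic rats were lower than Con-Pf rats by a log2 difference of -0.37 (SE 0.07, limma adjusted p = 0.0220 over all probe sets, of which 0.0685% were called). It was the only Klf probe set called in that contrast, and the call was lost when Con-Pf 5, Con-Pf 6, Nic 1, Nic 2 or Nic 4 was left out (limma adjusted p = 0.0524 to 0.0802). Nic and Con differed by 0.22, which did not pass (limma adjusted p = 0.458).

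The other Klf4 probe set, 10876838, read 7.10, 7.18 and 7.37 in Nic rats, 7.32, 7.50 and 7.84 in Con-Pf rats and 7.01, 7.07 and 7.32 in Con rats (lowest, median and highest). In 79 of the 80 possible pairs the Con-Pf rat lay above the Con rat, and the exception involved Con 2, the highest Con rat. Here too Klf4 was higher in Con-Pf than in Con, by 0.42 (SE 0.06, 95% interval 0.29 to 0.55, limma adjusted p = 0.000285), a linear ratio of 1.33. Nic minus Con-Pf was -0.29 (limma adjusted p = 0.0686) and Nic minus Con 0.13 (limma adjusted p = 0.342), so that neither passed. Both Klf4 probe sets thus gave the same order of the means, Con-Pf, then Nic, then Con. Among rats of 1 group they followed each other only weakly, with a Pearson r of 0.20 over the 25 arrays, against 0.78 when the group differences were left in.

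Klf2 is the flow-responsive KLF of endothelium and is also induced early after stimulation in other cells. Its level was 7.32, 7.40 and 7.61 in Nic rats (lowest, median and highest), 7.31, 7.55 and 7.82 in Con-Pf rats and 6.99, 7.40 and 7.48 in Con rats. The Con-Pf and Con groups overlapped, and 7 of the 10 Con-Pf rats lay above every Con rat. Con 5 (6.99) and Con 3 (7.05) were the lowest Con rats by a clear gap, as the next was at 7.23. Con-Pf minus Con was 0.25 (SE 0.07, 95% interval 0.10 to 0.39), which did not pass (limma adjusted p = 0.0762), and without Con 3 and Con 5 it was 0.15 (limma adjusted p = 0.524). Nic minus Con-Pf was -0.14 and Nic minus Con 0.11 (limma adjusted p = 0.999 and 0.444).

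Klf6, an activator with a role in regrowth after nerve injury, had means of 7.17 ± 0.02 in Nic, 7.17 ± 0.13 in Con-Pf and 7.16 ± 0.13 in Con (SD). Its level was 7.15, 7.17 and 7.20 in Nic rats (lowest, median and highest), 7.02, 7.16 and 7.51 in Con-Pf rats and 6.89, 7.20 and 7.29 in Con rats. The Nic rats lay within a range of 0.05, and Con-Pf 8 alone reached 7.51. Con-Pf minus Con was 0.01 (95% interval -0.10 to 0.12, limma adjusted p = 0.909) and Nic minus Con 0.01 (limma adjusted p = 0.925). The interval of Nic minus Con-Pf ran from -0.11 to 0.11. Each of these intervals ends nearer to 0 than any of the called differences.

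**Figure D2:**
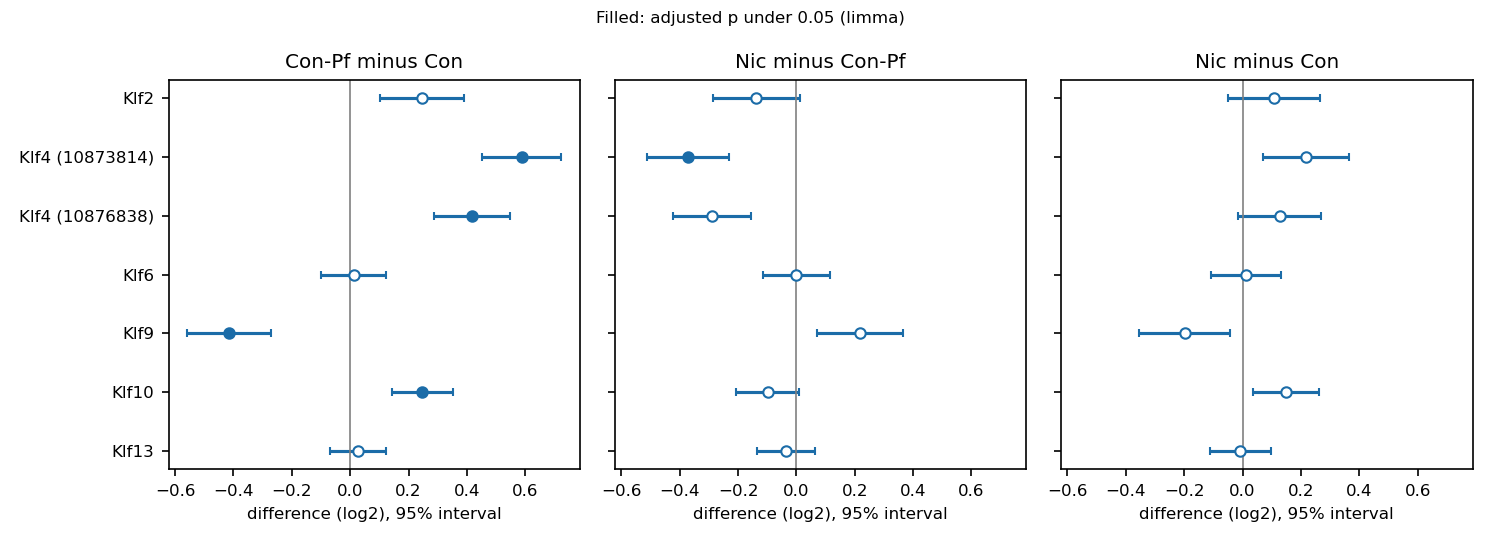
Log2 difference (horizontal axis) of each Klf probe set in Con-Pf minus Con, Nic minus Con-Pf and Nic minus Con, with 95% intervals from limma and filled symbols where the adjusted p was under 0.05. In Con-Pf minus Con, Klf4 and Klf10 lie to the right and Klf9 to the left of 0, and in Nic minus Con-Pf one Klf4 probe set is filled, at -0.37.

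The Nic mean lay between those of Con-Pf and Con for Klf2, both Klf4 probe sets, Klf9 and Klf10. Expressed as a share of the Con-Pf minus Con difference, the Nic minus Con difference was 30.5% and 36.8% for the Klf4 probe sets, 43.8% for Klf2, 47.7% for Klf9 and 60.2% for Klf10. These shares are a description, as none of the Nic minus Con differences passed the test. For Klf4, Nic minus Con did not pass on either probe set, and Nic minus Con-Pf passed on 10873814 but not on 10876838.

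Klf6 and Klf9 went up and down together among rats of 1 group. After the group means were subtracted, their Pearson r was 0.68 over the 25 arrays (Spearman 0.52), 0.71 over 23 arrays without Con 3 and Con 5 and 0.55 over 24 arrays without Con-Pf 8, the rat in which both were high. Klf6 and Klf13 gave 0.49, and 0.64 without Con 3 and Con 5. Klf9 and Klf13 gave 0.22, and 0.68 without Con 3 and Con 5. Klf2 and Klf4 10876838 gave 0.43, and 0.61 without them. Klf9 and Klf10, which moved in opposite directions between Con-Pf and Con, gave -0.37, and 0.01 without them. These are descriptions over arrays that share their normalisation, with no test.

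**Figure D3:**
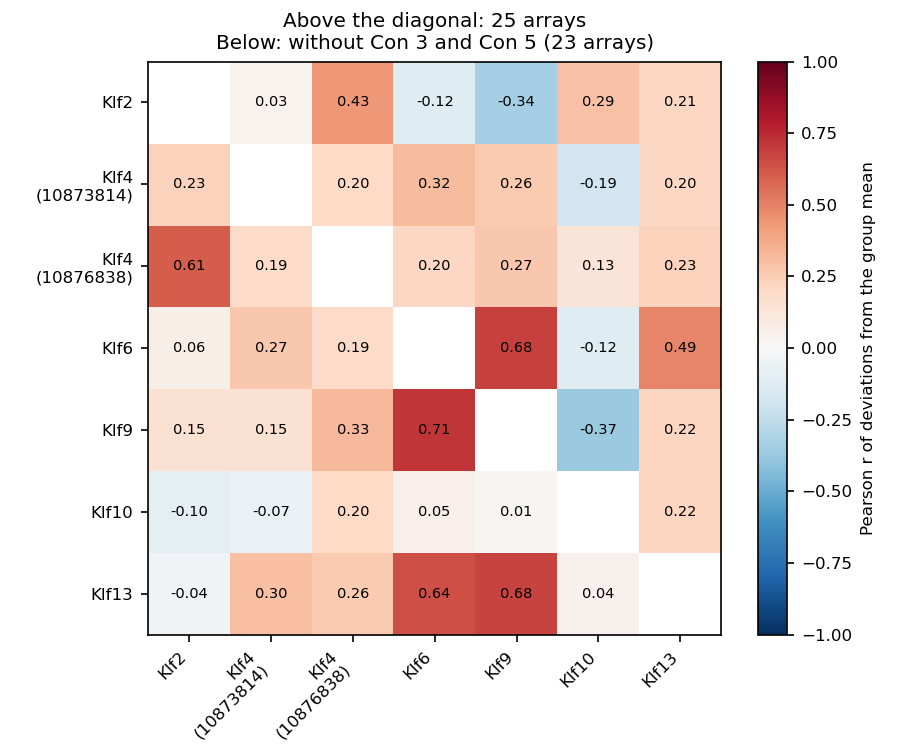
Pearson r between the Klf probe sets after each group's mean was subtracted, with 25 arrays above the diagonal and 23 arrays, without Con 3 and Con 5, below it. Colour runs over r values between full inverse and full positive correlation. The darkest red cells join Klf6, Klf9 and Klf13 (0.68 for Klf6 and Klf9 above the diagonal, 0.71 below it).

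The named genes most like each member, by the same within-group Pearson r over the 25 arrays, differed from member to member. Klf9 was followed most closely, by Pde2a, a cyclic nucleotide phosphodiesterase, by Eml1 and by Galntl6 (r = 0.90 for each). For Klf6 they were Ece1 (0.85), the endothelin-converting enzyme, Itgb2 (0.82), a leukocyte integrin, and Pamr1 (0.81), for Klf13 Hcn2 (0.80), a pacemaker channel, Bgn (0.80) and Aff1 (0.77), and for Klf10 Pdcl3 (0.79), Pacc1 (0.78) and Aurkaip1 (0.78). Klf4 10873814 was most like Me3 (0.84), the mitochondrial malic enzyme, Bmpr1b (0.78) and Ets1 (0.69). Klf4 10876838 was most like Spry1 (0.72), an inhibitor of growth factor signalling, Sik1 (0.71), a kinase that activity induces, and Fzd9 (0.68). Klf2 was most like Sprtn (0.74), Tmeff1 (0.73) and Plekhf2 (0.72). Without Con 3 and Con 5 the Klf2 values were lower, at 0.58, 0.59 and 0.48 in the same order. Those of Klf10 were 0.68, 0.66 and 0.69, and those of the other members stayed between 0.70 and 0.86.

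Among the other KLF genes, Klf5 gave 2 answers in Con-Pf minus Con. Probe set 10781829 of Klf5, which codes for an activator close to Klf4, was higher in Con-Pf, at 8.30 ± 0.23 against 7.85 ± 0.12 in Con (SD), a difference of 0.44 (SE 0.08, limma adjusted p = 0.0011). Probe set 10835837 of Klf5 gave 0.15 and did not pass (limma adjusted p = 0.183). With Con-Pf 9 and 10 counted as Con, the first of these was no longer called (limma adjusted p = 0.334). The second stands for Klf5 in the list, and of the 7 other KLF genes measured by their brightest probe set none was called, with a median of 0.07. Klf3 (0.20, limma adjusted p = 0.116) had the smallest p among them. None of the 4 SP genes was called (median 0.09), nor any of 13 genes of KLF corepressors and coactivators such as Sap18 (0.15, limma adjusted p = 0.219), a protein of the Sin3a complex. In the contrasts with Nic, none of these 3 lists had a call.

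**Figure D4:**
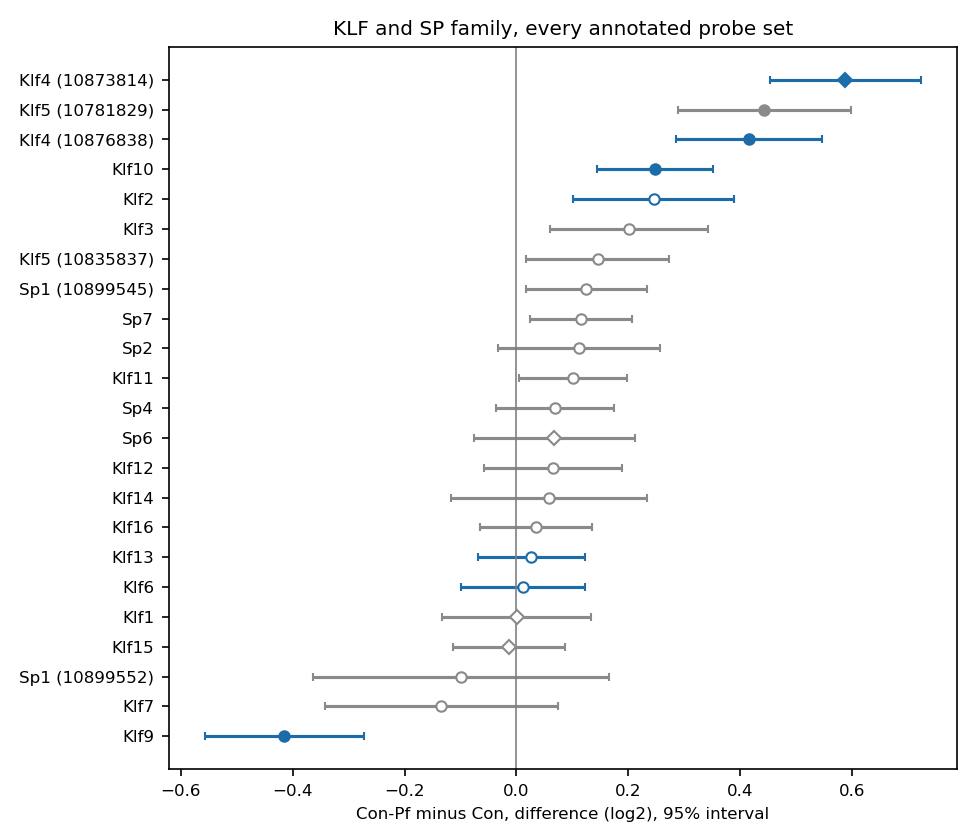
Log2 difference of Con-Pf minus Con (horizontal axis) with 95% intervals for every KLF and SP probe set on the array, the 6 Klf genes described here in blue and the others in grey. Filled symbols passed at an adjusted p under 0.05 and diamonds are probe sets under the level threshold. Klf9 (-0.42) stands alone at the left, and Klf4 (0.59 and 0.42), 1 Klf5 probe set (0.44) and Klf10 (0.25) are filled at the right.

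Lists of genes induced by the hormones that also induce Klf9 were read in Con-Pf minus Con. Of 16 glucocorticoid-induced genes measured, 2 were higher in Con-Pf (Dusp1, a phosphatase of MAP kinases, by 0.70, and Cdkn1a, a cell cycle inhibitor, by 0.34) and 1 was lower (Tsc22d3, the glucocorticoid-induced leucine zipper, at -0.19, limma adjusted p = 0.00542). The median of the list was -0.01, with 8 genes above and 8 below 0. Of the uncalled genes with the smallest p, Fkbp5 (-0.21), Mertk (-0.22), Ddit4 (-0.18) and Zbtb16 (-0.17) had the sign of Klf9. Pdk4 (0.27), Per1 (0.22) and Mt2A (0.16) had the opposite sign, and none of these passed (limma adjusted p = 0.0506 to 0.178). Of 10 thyroid hormone-responsive brain genes none was called (median -0.03), and those with the smallest p were Reln (-0.34, limma adjusted p = 0.0553) and Thrb (-0.16, limma adjusted p = 0.0867).

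Clock genes and immediate early genes moved in the same contrast as Klf9, Klf10 and Klf4. Of 15 clock genes measured, 3 were higher and 7 lower in Con-Pf than in Con (median -0.18), among them Bmal1 (0.51) and Nfil3 (0.45), which were higher, and Nr1d2 (-0.33) and Per3 (-0.33), which were lower. Of 21 immediate early genes, which neurons switch on within minutes of activity, 16 were higher and none lower (median 0.61), led by p by Nr4a1 (1.44), Egr1 (0.55) and Egr2 (1.22). The immediate early gene Dusp1 is also counted among the glucocorticoid-induced genes, as is the clock gene Per1. In Nic minus Con-Pf, 9 of the 21 immediate early genes were lower in Nic, 1 clock gene was higher (Nr1d2, 0.24) and 2 were lower (Nfil3, -0.31, and Bmal1, -0.30). The part of these genes in the Klf differences was not tested. The sources used here do not give the hour at which each rat was killed.

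Of 8 endothelial genes known as targets of KLF2 and KLF4, 2 were higher in Con-Pf: Edn1 (0.45, limma adjusted p = 0.000285), the endothelin precursor, and Cdkn1a. The Cdkn1a value is the one already counted among the glucocorticoid-induced genes. The median was 0.07, in a list that does not separate targets these factors raise from those they lower. Of 12 genes around the growth factor pathway of Klf10, 1 was lower, Smad3 (-0.18, limma adjusted p = 0.0441), which carries the signal to the nucleus, and the median was 0.09. Neither list had a call in Nic minus Con-Pf or in Nic minus Con.

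**Figure D5:**
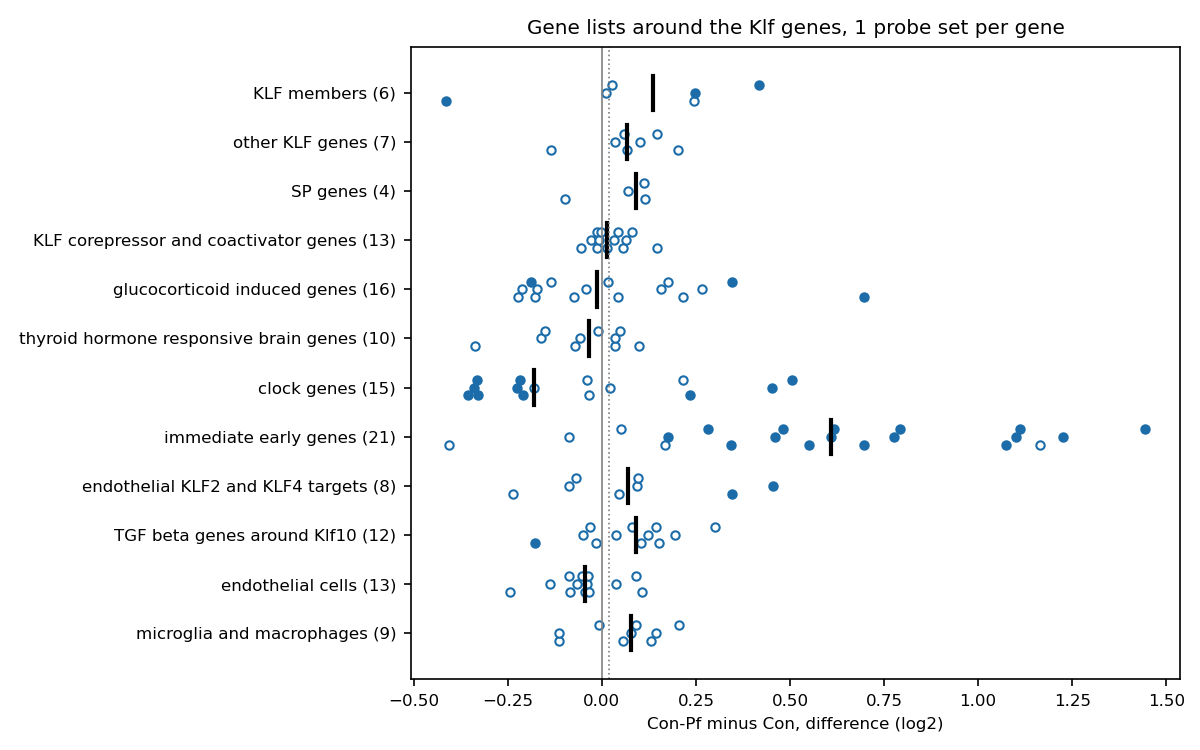
Log2 difference of Con-Pf minus Con (horizontal axis) for each gene of the lists around the Klf genes, 1 probe set per gene, with the number of genes measured in brackets. Each circle is 1 gene, filled where the adjusted p was under 0.05, black bars are list medians and the dotted line is the median of all genes (0.02). Immediate early genes lie to the right (median 0.61), most clock genes to the left (median -0.18).

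In bulk tissue, fewer cells of a type and less RNA per cell cannot be told apart. Markers of the cells that express Klf2 and Klf4 strongly were not called in any contrast: none of 13 endothelial markers and none of 11 mural and meningeal markers passed. The mean level of the endothelial markers ranged over 9.00 to 9.24 in Nic rats, 9.05 to 9.17 in Con-Pf rats and 9.01 to 9.25 in Con rats. None of the 9 microglial, 9 astrocyte, 10 oligodendrocyte, 11 striatal projection neuron, 3 cortical and thalamic, 3 choroid plexus and 2 blood markers was called either. The striatal projection markers, whose mean level ran from 11.72 to 11.87 in Con-Pf rats and from 11.73 to 11.91 in Con rats, were present in every rat. The 3 cortical and thalamic markers measured had a median of 0.53 in Nic minus Con-Pf and of -0.19 in Con-Pf minus Con, the same signs as Klf9 in these contrasts. Slc17a7, the vesicular glutamate transporter of cortical neurons, gave 1.18 in Nic minus Con-Pf and -0.63 in Con-Pf minus Con. Cck gave 0.53 and -0.19, and the remaining marker had the opposite sign in both contrasts. In Nic minus Con all 3 markers lay above 0, with a median of 0.33, whereas Klf9 was at -0.20. None of these marker differences passed. The mean level of the 3 markers ran from 8.09 to 9.69 in Nic, from 8.11 to 8.61 in Con-Pf and from 8.16 to 9.20 in Con. The choroid plexus markers varied widely between rats, from 7.28 to 10.63 in Con-Pf and from 7.19 to 10.24 in Con. The part of the cortical and choroid plexus markers in the Klf differences was not tested.

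The calls in Con-Pf minus Con depend on whether Con-Pf 9 and 10 are counted as Con. Their titles name the pair-fed group and their descriptions name a control. With both counted as Con, none of the 6 kept Klf probe sets was called, and Klf9, Klf10 and Klf4 10876838 had limma adjusted p-values of 0.188, 0.284 and 0.230. Klf4 10873814 was still called. With both left out, 3 of the 6 were called. Both rats lay outside the Con range, on the Con-Pf side, for Klf9, Klf10 and both Klf4 probe sets. For Klf9 they read 10.47 and 10.64, against 10.73 in the lowest Con rat. On Klf4 10876838 Con-Pf 9 read 7.33, against 7.32 in the highest Con rat. The paper's differences between Con-Pf and Con for Nr4a1 (1.44), Egr2 (1.22) and Egr1 (0.55) equal those found here with groups by title. Which label is right was not tested.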

How the data were processed

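Striatal RNA of 25 rats was measured on Affymetrix rat GeneChip 1.0st arrays, 1 per rat. The deposited values are log2 levels per probe set that the authors made with RMA (background correction, quantile normalization and 1 summary value per probe set). The submitters' processing notes name Affymetrix Expression Console 1.1. The genome build of the annotation is not given in any source used here. The authors had removed 2 Con arrays and 1 Nic array. Their supplement reports a low RNA integrity number for a sample that went on to processing, and does not name the sample. It ascribes this value to a likely technical issue. Groups were taken from the sample titles, which give 10 Con-Pf and 8 Con arrays. The methods' list of animals leads to these numbers, whereas their statistics section has 8 Con-Pf and 10 Con arrays, as would follow if Con-Pf 9 and 10 were Con. As litters are not given, p-values measure the spread between these rats.

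Probe sets with a mean at or above the median were kept (14607 of 29214). Group differences came from limma 3.58.1 (R 4.3.3), in 1 model over the 3 groups, with Benjamini-Hochberg adjustment over all kept probe sets and a threshold of 0.05. Of all probe sets, 15310 carry 1 symbol, 323 several and 13581 none. In lists, the brightest probe set stood for its gene. The 6 genes and the lists were chosen with earlier results of these data known. Named were all members, in each list up to 4 called genes with the smallest p (or 2 that did not pass), and per member the 3 genes with the highest within-group r, while Klf5 10781829 was named after its value was seen. Beyond this rule, uncalled glucocorticoid-induced genes were named. The fit was tested on simulated data. Alternatives were the methods' t-test, other moderation, array weights, no filter or a stricter one, further normalization, the treatment of Con-Pf 9 and 10, a replicate block, leaving out Con 3 and Con 5, and leaving out each array. A fit of replicates 1 to 7 without the block was added after seeing the data. Figures were drawn with matplotlib 3.10.9. The number of arrays limits the precision. Signal over background was not analysed here.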

Additional observations from a re-analysis of the deposited data

Results flagged for a closer look

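Of the 21 combinations of a Klf probe set and a group, 2 held 1 array far from the others, by the gap to its neighbour as a share of the group's range. The cut-off was set so that chance would flag about 1 in 20 groups, a nominal rate that was not measured here. Klf4 10876838 read 7.32 in Con 2, against 7.14 in the next Con rat. Klf6 read 7.51 in Con-Pf 8, against 7.20 in the next Con-Pf rat, and the same rat had the highest Klf9 level of its group.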

How the results depend on the processing

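Of the 3 Klf probe sets called in Con-Pf minus Con, the methods' t-test with Benjamini-Hochberg adjustment called 1, the methods' thresholds (unadjusted p under 0.01 and a log2 difference of 0.5) 0, the stricter filter 1 and the fit with Con-Pf 9 and 10 counted as Con 0. The stricter filter kept 2 Klf probe sets, those of Klf9 and Klf13, and Klf9 kept its call. Array weights called 2 (Klf10 lost, limma adjusted p = 0.0684), the fit without Con 3 and Con 5 called 2, and leaving out 1 array called 3 to 4. Klf2 joined the calls without Con 4, Con 6 or Con 7 (limma adjusted p = 0.0480, 0.0494 and 0.0495). Klf9 missed the threshold with the methods' t-test after adjustment (adjusted p = 0.0632), and its limma adjusted p ran from 0.000157 to 0.00305 when 1 array was left out. In Nic minus Con-Pf the count of 0 became 2 with array weights (Klf9 and Klf4 10876838), 1 with no filter and 0 to 1 when 1 array was left out (Klf4 10876838 without Con 2, Con-Pf 3, Con-Pf 7 or Con-Pf 9). Klf4 10873814 lost its call there with each array centred on its median (limma adjusted p = 0.0679), further quantile normalization (0.0896), Con-Pf 9 and 10 as Con (0.583), and without Con-Pf 5 (0.0524), Con-Pf 6 (0.0586), Nic 1 (0.0635), Nic 2 (0.0802) or Nic 4 (0.0601). In Nic minus Con the count was 0 under every alternative run. The cause of these changes was not tested.

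Signs turned only where differences were near 0. Klf6 in Con-Pf minus Con was -0.021 with array weights, and -0.027 to 0.030 when 1 array was left out. Klf6 in Nic minus Con-Pf was 0.021 with array weights, 0.012 with further quantile normalization and 0.015 with centring, and -0.017 to 0.037 when 1 array was left out. Klf6 in Nic minus Con ran from -0.027 to 0.030 when 1 array was left out. Klf13 in Con-Pf minus Con was -0.031 with array weights and -0.0073 without Con 3 and Con 5. Klf13 in Nic minus Con ran from -0.027 to 0.014 when 1 array was left out. Of all single differences and alternatives, 744 kept direction and side of the threshold, 30 changed sign, 9 passed newly and 21 no longer passed.

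With the replicate block over replicates 1 to 7, 3 Klf probe sets were called in Con-Pf minus Con, as with the same replicates and no block. Klf6 was -0.017 in Con-Pf minus Con and 0.043 in Nic minus Con-Pf, and Klf13 0.014 in Nic minus Con, each with the block and without it. Klf4 10873814 in Nic minus Con-Pf had a limma adjusted p of 0.0925 with the block and 0.101 without it. Of 21 pairs of arrays with the same number, 10 correlated above 0.1 in their deviations (r from -0.36 to 0.34). In 4 pairs the array correlated best with its own number. Correlations of this kind cannot tell whether arrays with the same number shared a day or a batch. The methods state that the groups were balanced over extraction days and that hybridisation was balanced, without naming the arrays.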
